A study of Arabidopsis thaliana with 14 samples.

Results

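The second day of darkness was examined by setting the 2 arrays of Arabidopsis thaliana rosettes taken 48 h into an extended night against the 2 arrays taken 24 h into it. These are 4 of the 14 arrays of the series, chosen by their titles alone, and both time points have 1 array lettered B and 1 lettered C. All 22746 probe sets that are not controls were compared. The series followed rosettes into a night that was prolonged past its usual end, and it covers 8 time points on the Affymetrix ATH1 array. The 24 h and 48 h samples fell at the same clock time as the end of the night (3 arrays, lettered A, B and C). All groups were wild-type plants of the accession Columbia-0, 5 to 6 weeks old, with 3 rosettes in a sample, grown finally in a 14 h photoperiod. The labels name no agent or transgene, and the groups differ by label only in the time without light. The labels do not say whether arrays of a time point came from separate plantings, so p-values measure the spread between these samples only.

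Leaves in the light store part of their carbon as starch and break it down at night. When the night is prolonged the starch runs out, growth stops, and cells turn to protein, lipid and amino acids as respiratory fuel. Autophagy, which delivers cell contents to the vacuole through lipid-anchored ATG8 proteins, and the catabolism of branched-chain amino acids are known parts of this response, while transcripts of photosynthesis and growth decline. Leaves kept dark for longer also begin to senesce, dismantling their chloroplasts.

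Values are log2 signals from robust multi-array averaging (RMA). A difference of 1 log2 unit is a 2-fold difference, and errors after ± are limma standard errors. A probe set was called where limma's p-value, adjusted by Benjamini-Hochberg over all probe sets, was under 0.05. One gene could be assigned to 13513 probe sets, none to 8730 and several to 503. Genes without a symbol are given by locus. Of the 4 leaf mesophyll markers only RCA had a usable probe set, with levels of 12.14 and 12.91 at 24 h and 9.85 and 11.86 at 48 h. In whole rosettes, fewer cells of a type and less RNA per cell cannot be told apart.

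The 48 h arrays were less alike than the 24 h arrays. The difference between arrays B and C had a standard deviation of 0.46 log2 units across probe sets at 48 h and 0.30 at 24 h. The control probe set for the cytosolic large-subunit ribosomal RNA read 8.98 on 48 h array B and 13.66 on 48 h array C, and 11.05 to 13.78 over the 13 arrays other than 48 h B. The difference between 3' and 5' control probe sets on 48 h B exceeded that of the 13 others for 1 of 2 actin controls (2.02 against 0.90 to 1.70) and 1 of 2 ubiquitin controls (1.08 against 0.62 to 0.99). For the remaining actin, ubiquitin and both GAPDH controls it lay inside their range. The part of these differences in the results was not tested, and values are therefore given for each array.

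Between 24 h and 48 h, transcripts of a chitinase (CHI), a phenylpropanoid methyltransferase (CCOAMT) and a dehydrin (LTI30) were among the 15 largest rises of probe sets with 1 gene. Those of an expansin (EXPA8), a xyloglucan-modifying enzyme (XTH19) and a thylakoid protein (CaS) were among the 15 largest such falls. The limma fit called 1144 probe sets, 5.03% of those tested, of which 565 rose (2.48%) and 579 fell (2.55%). At least 2-fold changes were found in 295 of the rises and 268 of the falls. The median change over all probe sets was -0.0003. Both 48 h arrays lay on one side of both 24 h arrays in all 1144 called probe sets, a pattern also present in 39.5% of all probe sets. The change in letter B and the change in letter C correlated at r = 0.64 across probe sets, as a description, since probe sets are not independent. The number of calls depended on the arrays and on the pooling of spread over time points. It was 364 without 24 h array B, 346 without 24 h array C and 1739 without 48 h array C. With the letter as a replicate block it was 2972, and a fit of the 24 h and 48 h arrays alone called 2 probe sets, with 2782 at an unadjusted p under 0.05.

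**Figure D1:**
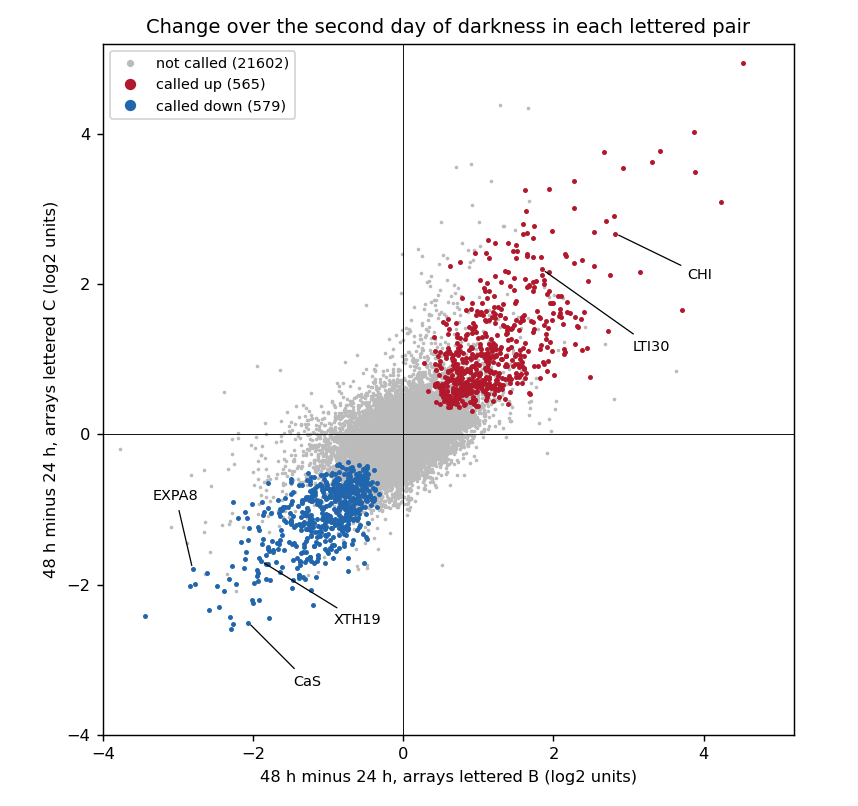
Change from 24 h to 48 h in log2 units, for the arrays lettered B on the horizontal axis and those lettered C on the vertical axis. Each point is a probe set; red points are the 565 called rises, blue points the 579 called falls and grey points were not called, and every called point is above 0 on both axes or below 0 on both.

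Of the 1144 called probe sets 525 had 1 gene, and of those 90 had a symbol other than the locus. Among the 15 largest rises with 1 gene, increases ran from 2.02 to 3.21 log2 units. These and the leading falls were chosen from probe sets whose 24 h and 48 h arrays did not overlap. CHI, a chitinase that acts on the chitin of fungal walls, read 7.32 on 24 h array B and 7.31 on C, and then 10.14 and 9.99 at 48 h. Arrays of a time point were nearly equal and the groups lay far apart. CHI rose by 2.75 ± 0.23 (6.73-fold, adjusted p = 5.99e-04). CCOAMT, a caffeoyl-CoA O-methyltransferase of phenylpropanoid metabolism, had levels of 6.72 and 6.75 at 24 h and 8.37 and 9.15 at 48 h. CCOAMT rose by 2.03 ± 0.22 (adjusted p = 0.00157). LTI30, a dehydrin induced by cold and abscisic acid, read 6.95 and 7.50 at 24 h and 8.80 and 9.70 at 48 h. Its arrays spread more within a time point, and it rose by 2.02 ± 0.48 (adjusted p = 0.0448). The LTI30 call was lost without 24 h array B (adjusted p = 0.233), 24 h array C (0.131) or 48 h array C (0.126).

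The remaining leading rises are known by locus. AT4G16260 read 5.74 and 6.04 at 24 h and 8.41 and 9.80 at 48 h, the largest rise with 1 gene at 3.21 ± 0.54 (9.27-fold, adjusted p = 0.0113). AT1G68620 read 6.58 and 6.95 at 24 h and 9.38 and 9.86 at 48 h, and rose by 2.86 ± 0.38 (adjusted p = 0.00377). AT3G60420 stood at 6.56 and 6.98 at 24 h and at 9.10 and 9.67 at 48 h, a rise of 2.62 ± 0.25 (adjusted p = 9.25e-04). In each of these 3 genes the groups did not overlap, as their selection required. AT1G09500 (2.68 ± 0.39), AT1G19020 (2.65 ± 0.41), AT1G54890 (2.44 ± 0.27) and AT5G38900 (2.26 ± 0.27) also rose. So did AT4G39670 (2.17 ± 0.26), AT2G31945 (2.10 ± 0.20), AT1G23120 (2.06 ± 0.32) and AT3G01830 (2.02 ± 0.26). AT5G38710, the 15th, belongs to the amino acid catabolism genes below. The rise of AT4G16260 lost its call without 24 h array B (adjusted p = 0.0815) or C (0.065), that of AT1G19020 without 24 h B (0.0672) and that of AT1G23120 without 24 h B (0.0616).

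**Figure D2:**
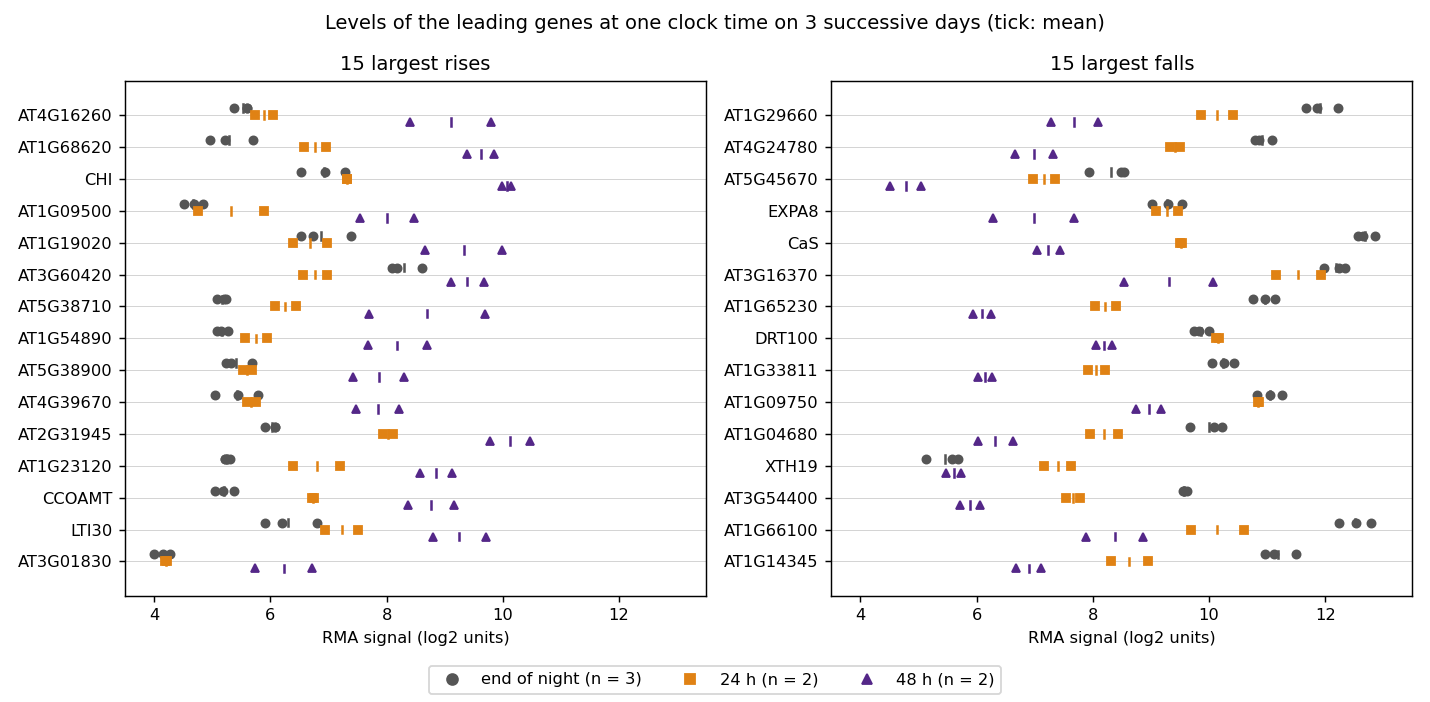
RMA signal in log2 units of the 15 genes with the largest called rises (left) and the 15 with the largest called falls (right). Circles are the 3 end of night arrays, squares the 2 arrays at 24 h and triangles the 2 at 48 h, with a tick at each mean; CHI is near 7.3 on both 24 h arrays and near 10 on both 48 h arrays, while XTH19 at 48 h is close to its end of night values.

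Among the 15 largest falls were genes of the growing wall and of the thylakoid. EXPA8, an expansin, which loosens cell walls, read 9.09 and 9.47 at 24 h and 6.28 and 7.68 at 48 h. It fell by 2.30 ± 0.43 (4.92-fold, adjusted p = 0.018), more in letter B than in letter C. XTH19, a xyloglucan endotransglucosylase/hydrolase that cuts and rejoins wall xyloglucan, read 7.62 and 7.17 at 24 h and 5.73 and 5.48 at 48 h. The change of XTH19 was -1.79 ± 0.28 (adjusted p = 0.00733). CaS, a thylakoid protein that takes part in calcium signalling, read 9.50 and 9.54 at 24 h and 7.44 and 7.03 at 48 h. It fell by 2.28 ± 0.20 (4.87-fold, adjusted p = 7.25e-04), and its end of night values had been 12.56, 12.86 and 12.64. DRT100 read 10.18 and 10.11 at 24 h and 8.05 and 8.34 at 48 h, a change of -1.95 ± 0.20 (adjusted p = 0.00117). Calls were lost for EXPA8 without 24 h array B (adjusted p = 0.0757) or C (0.133) and for XTH19 without 24 h B (0.0668).

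The other 11 leading falls are known by locus. AT1G29660 read 9.85 and 10.42 at 24 h and 7.27 and 8.08 at 48 h, the largest fall at -2.46 ± 0.34 (5.49-fold, adjusted p = 0.00417). AT4G24780 read 9.51 and 9.33 at 24 h and 6.67 and 7.32 at 48 h, a fall of -2.43 ± 0.22 (adjusted p = 7.26e-04). AT5G45670 went from 6.96 and 7.35 to 4.51 and 5.05, a fall of -2.38 ± 0.29. In all 3 the 24 h and 48 h arrays did not overlap, as their selection required. AT3G16370 (-2.23 ± 0.43), AT1G65230 (-2.12 ± 0.19), AT1G33811 (-1.92 ± 0.20) and AT1G09750 (-1.88 ± 0.18) also fell. AT1G04680 (-1.87 ± 0.27), AT3G54400 (-1.78 ± 0.18), AT1G66100 (-1.76 ± 0.41) and AT1G14345 (-1.73 ± 0.24) complete the falls. Without 24 h array C the calls of AT3G16370 (adjusted p = 0.149) and AT1G04680 (0.0583) were lost. That of AT1G66100 was lost without 24 h B (0.0576), 24 h C (0.256) or 48 h B (0.18).

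Some nuclear genes of photosynthesis fell. Of 8 measured genes of the light reactions 3 fell (37.5%, beside 2.55% of all probe sets) and 0 rose. All 8 changes were below 0, with a median of -0.53 against the median of -0.0003 over all probe sets. PSAE-1, a stromal subunit of photosystem I, read 13.42 and 13.18 at 24 h and 12.53 and 12.14 at 48 h, a fall of -0.97 ± 0.15 (adjusted p = 0.00862). ATPC1, the gamma subunit of the chloroplast ATP synthase, read 12.30 and 12.36 at 24 h and 11.56 and 11.64 at 48 h and fell by 0.73 ± 0.11 (adjusted p = 0.00677). LHCB4.2, an antenna protein of photosystem II, fell by 0.70 ± 0.13 (adjusted p = 0.0158). The paralogues LHCB4.1 (-0.20 ± 0.10) and LHCB4.3 (-0.28 ± 0.21) were not called. The replicate block called 5 of the 8 down, PSAN and PSBW being the further 2. LHCB4.3 had already dropped by 3.93 over the first day, to 7.28 and 7.44 at 24 h. Leaving out 24 h array B ended the calls of PSAE-1 (adjusted p = 0.0749) and LHCB4.2 (0.112), and leaving out 24 h C ended that of ATPC1 (0.0614).

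Of 3 measured Calvin cycle genes 2 fell (66.7%), and of 5 photorespiration genes 3 fell (60.0%), beside 2.55% of all probe sets. PRK, phosphoribulokinase, which regenerates the carbon dioxide acceptor, read 12.19 and 12.18 at 24 h and 10.27 and 10.90 at 48 h, a fall of -1.60 ± 0.18 (3.03-fold, adjusted p = 0.00195). SBPASE, sedoheptulose-bisphosphatase of the same cycle, read 9.85 and 10.19 at 24 h and 8.47 and 8.45 at 48 h, a fall of -1.56 ± 0.14 (adjusted p = 7.37e-04). Both calls held without any 1 of the 4 arrays. RCA, Rubisco activase, differed by -1.67 ± 0.53 and was not called (adjusted p = 0.122), its letter B difference being -2.28 and its letter C difference -1.05. RCA was called down with the replicate block (adjusted p = 0.0143) and without 48 h array C (0.00292). The median of the 5 photorespiration genes was -0.62, and AT1G80380 was above 0 (0.32 ± 0.16, not called). AT1G11860 read 10.95 and 11.01 at 24 h and 9.36 and 9.86 at 48 h, a fall of -1.37 ± 0.16 (adjusted p = 0.00182). LrgB, which carries glycolate and glycerate across the chloroplast envelope, fell by 1.20 ± 0.15 (adjusted p = 0.00312), from 7.31 and 7.49 to 6.38 and 6.02. AT1G32470 fell by 0.62 ± 0.13 (adjusted p = 0.0284), a call lost without 24 h array B (0.118), 24 h C (0.166) or 48 h C (0.0787). HPR, hydroxypyruvate reductase, stayed bright, at 13.17 and 13.19 at 24 h and 13.15 and 12.83 at 48 h (-0.19 ± 0.14, not called).

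Tetrapyrrole synthesis supplies chlorophyll and haem, and 8 of its 27 listed genes were measured. Of these 8 genes 4 fell, beside 2.55% of all probe sets, and 0 rose, with a median of -0.46. PORB, a protochlorophyllide oxidoreductase, the light-requiring step, read 10.70 and 10.48 at 24 h and 9.18 and 9.43 at 48 h, a fall of -1.28 ± 0.22 (adjusted p = 0.012). CHLI2, a subunit of magnesium chelatase, read 6.96 and 6.83 at 24 h and 6.00 on both 48 h arrays, a fall of -0.90 ± 0.10 (adjusted p = 0.00208). The CHLI2 groups were tight and apart, and its call held without any 1 of the 4 arrays. HEME1, a uroporphyrinogen decarboxylase, fell by 0.66 ± 0.15 and CHLM, the magnesium protoporphyrin methyltransferase, by 0.53 ± 0.11. Calls were lost without 24 h array B for PORB (adjusted p = 0.0898), HEME1 (0.153) and CHLM (0.146), and without 24 h C (0.0556, 0.196 and 0.149). That of PORB was also lost without 48 h B (0.0522), and those of HEME1 and CHLM without 48 h C (0.112 and 0.0856). GSA1, of the early steps, was at -0.02 ± 0.17.

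Further chloroplast genes among the called ones with a symbol were picked out after their values were seen, except TAPX and CRR42, which are list members. HCF101, which assembles iron-sulphur clusters for photosystem I, read 8.21 and 8.08 at 24 h and 6.88 and 6.51 at 48 h, a fall of -1.45 ± 0.16. The light-harvesting-like proteins LIL3:1 (-1.29 ± 0.18) and LIL3:2 (-1.11 ± 0.22), which act in chlorophyll synthesis, both fell. NdhL, a subunit of the thylakoid NADH dehydrogenase-like complex, fell by 1.28 ± 0.17 and TROL, a thylakoid anchor of ferredoxin-NADP reductase, by 1.25 ± 0.14. TAPX, the thylakoid ascorbate peroxidase, fell by 0.88 ± 0.14, and CRR42 by 0.85 ± 0.18. NdhN, like NdhL a subunit of the NADH dehydrogenase-like complex, fell by 0.78 ± 0.18 (limma adjusted p = 0.045). Its fall was 0.61 to 0.95 with 1 array left out. CRR42 is 1 of 5 measured members of the list for this complex, which holds neither NdhL nor NdhN. It was the 1 called member (20.0%, beside 2.55% of all probe sets). The list's median was -0.12, and 2 members were above 0. HCF101, LIL3:1, NdhL and TROL kept their calls without any 1 of the 4 arrays. LIL3:2 was lost without 24 h C (adjusted p = 0.153) or 48 h B (0.0948), and TAPX without 24 h B (0.0582) or 24 h C (0.0668). CRR42 was lost without 24 h B (0.0911), 24 h C (0.194), 48 h B (0.0745) or 48 h C (0.0716).

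Transcripts of the plastid genome behaved differently on the 2 arrays at 48 h. Of the 62 listed plastid-encoded genes with a probe set, 60 had a change below 0, but 1 was called down and 0 up. Over all probe sets 2.55% were called down. Some other plastid genes with a probe set, such as accD, matK and clpP, were not in the lists. The median level of the 62 listed genes was 11.54 on 24 h array B, 11.51 on 24 h C, 9.98 on 48 h B and 11.30 on 48 h C. On the end of night arrays it had been 11.80, 11.60 and 11.57. Array 48 h B was thus the low one. The median difference was -0.89 in letter B and -0.26 in letter C, and 59 and 56 of the 62 genes were below 0. In the 33 genes for photosystems, cytochrome b6f, ATP synthase and Rubisco, the letter B median was -1.42 and the letter C median -0.19. psaA, a core protein of photosystem I, read 13.27 and 11.72 at 24 h and 9.50 and 11.52 at 48 h, so that array C hardly differed (-0.20) while array B differed by -3.77. The called gene was psbZ, a small subunit of photosystem II, at 12.44 and 12.02 at 24 h and 11.57 and 11.44 at 48 h (-0.73 ± 0.14, adjusted p = 0.0201). Its call was lost without 24 h B (0.111) or 48 h C (0.0549). With the replicate block 7 of the 62 were called, beside 2972 of all 22746 probe sets. The median change of the 33 genes was -0.12 without 48 h B and -1.76 without 48 h C. Array 48 h B is also the array with the low rRNA control, and the part of that in these values was not tested.

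**Figure D3:**
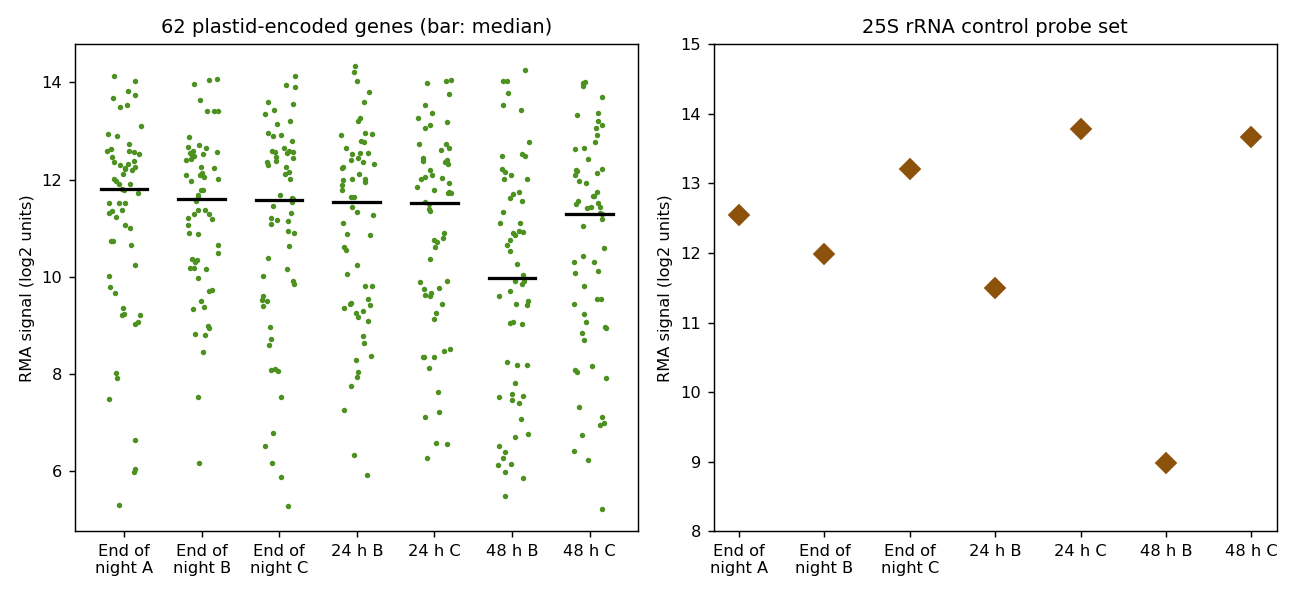
Left, RMA signal in log2 units of 62 plastid-encoded genes on each array of the end of the night, 24 h and 48 h, each point a gene and each bar the median; right, the rRNA control probe set on the same arrays. The median of 48 h B is 9.98 and the other 6 medians run from 11.30 to 11.80, and the rRNA control of 48 h B is at 8.98.

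Of 27 measured expansins and xyloglucan endotransglucosylase/hydrolases 4 fell (14.8%, beside 2.55% of all probe sets) and 0 rose. In this group 21 changes were below 0 and the median was -0.16. Besides EXPA8 and XTH19, EXPA16 read 10.34 and 10.43 at 24 h and 8.46 and 9.52 at 48 h, a fall of -1.40 ± 0.32 (adjusted p = 0.0401). At the end of the night it had been at 6.88, 6.64 and 6.30, so that 48 h lay between the earlier time points. EXLA2, an expansin-like protein, fell by 0.90 ± 0.16 (adjusted p = 0.0149). EXLB1, of the same superfamily, was higher at 48 h by 1.23 ± 0.37 but was not called (adjusted p = 0.0979). With the replicate block 6 of the 27 were called down, and EXLB1 was called up (adjusted p = 0.0319). Of 7 tubulin genes TUB5 (-1.13 ± 0.20, adjusted p = 0.0131) and TUA6 (-1.02 ± 0.21, adjusted p = 0.0279) fell and 0 rose. The tubulin share called down was 28.6%, beside 2.55% of all probe sets. IQD31, of a family of 15 measured calmodulin-binding IQ-domain proteins that associate with microtubules, fell by 0.99 ± 0.19. It was 1 of 9 members below 0 and the 1 called (6.67%, beside 2.55% of all probe sets), and the family's median was -0.53. The replicate block called 5 of the 15 down.

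These calls depended on single arrays. Without 24 h array B, adjusted p rose to 0.154 for EXPA16, 0.106 for EXLA2, 0.165 for TUA6 and 0.134 for IQD31. Without 24 h array C it was 0.201 for EXPA16, 0.0593 for EXLA2, 0.107 for TUB5, 0.0991 for TUA6 and 0.0984 for IQD31. Without 48 h array B it was 0.13 for EXPA16, 0.111 for TUA6 and 0.0976 for IQD31. Among other called genes, noticed after their values were seen, were CSLC04 (-1.28 ± 0.23) and CSLC5 (-0.90 ± 0.16), which make the glucan backbone of xyloglucan. The endoglucanases GH9B13 (-1.28 ± 0.29), GH9C2 (-1.12 ± 0.26) and GH9B7 (-0.84 ± 0.14) fell too. In the order CSLC04, CSLC5, GH9B13, GH9C2 and GH9B7, adjusted p was 0.0571, 0.0616, 0.2, 0.212 and 0.0911 without 24 h array B and 0.115, 0.11, 0.134, 0.115 and 0.0528 without 24 h C. Without 48 h B it was 0.0639 for CSLC5, 0.162 for GH9B13 and 0.138 for GH9C2, and without 48 h C 0.0613 for GH9C2. IAA29, an auxin-response repressor and 1 of 7 small auxin up RNA and Aux/IAA genes, went from 8.27 and 8.90 to 6.84 and 7.69. Its fall of -1.32 ± 0.31 (adjusted p = 0.0438) was lost without 24 h B (0.0716), 24 h C (0.271) or 48 h B (0.186). The main fit called no other of the 7 (14.3% down, beside 2.55% of all probe sets), and the replicate block also called 1 of the 7 up.

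Genes of autophagy and amino acid catabolism are known to rise early in carbon starvation. Of 16 autophagy genes 2 rose (12.5%, beside 2.48% of all probe sets) and 0 fell, 15 changes were above 0 and the median was 0.27. ATG8B, 1 of the ATG8 proteins of the autophagosome membrane, read 9.76 and 10.02 at 24 h and 11.25 and 11.06 at 48 h, a rise of 1.27 ± 0.16 (2.40-fold, adjusted p = 0.00322). Over the first day it had gone up by 2.75, from 7.25, 7.00 and 7.16. ATG8H read 7.59 and 7.45 at 24 h and 8.88 and 8.54 at 48 h, a rise of 1.19 ± 0.23 (adjusted p = 0.0184). The ATG8H call was lost without 24 h array B (adjusted p = 0.0832), 24 h C (0.129) or 48 h B (0.085). The paralogues ATG8E (0.09 ± 0.14) and ATG8F (-0.06 ± 0.15) were not called, both having been brighter than 11 at 24 h.

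Of 13 amino acid catabolism genes 3 rose (23.1%, beside 2.48% of all probe sets) and 0 fell, 12 changes were above 0, and the median was 0.44. AT5G38710 read 6.08 and 6.44 at 24 h and 7.70 and 9.70 at 48 h, a rise of 2.44 ± 0.49 (adjusted p = 0.0233) that was larger in letter C. D2HGDH, D-2-hydroxyglutarate dehydrogenase, rose by 0.77 ± 0.18 (adjusted p = 0.0377). ETFBETA, a subunit of the flavoprotein that takes electrons from these oxidations, rose by 0.61 ± 0.14 (adjusted p = 0.0375). The 4 enzymes of this group that had risen by over 4 log2 units on the first day were not called on the second. IVD, isovaleryl-CoA dehydrogenase, was at 12.06 and 11.65 at 24 h and 12.67 and 11.90 at 48 h, and MCCA, of methylcrotonyl-CoA carboxylase, was at 12.90 and 12.66 and then 12.98 and 12.83. The differences were 0.44 ± 0.30 for IVD, 0.12 ± 0.20 for MCCA, 0.66 ± 0.31 for MGL, methionine gamma-lyase, and 1.11 ± 0.37 for AT4G33150, with adjusted p from 0.145 to 0.878. With the replicate block 6 of the 13 were called up, the further 3 being MGL (adjusted p = 0.038), AT4G33150 (0.00161) and ALDH6B2 (0.0335). Without 24 h array B or C adjusted p was 0.141 and 0.103 for AT5G38710, 0.172 and 0.164 for D2HGDH and 0.184 and 0.147 for ETFBETA. Without 48 h array B it was 0.169 for D2HGDH and 0.164 for ETFBETA.

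Regulators and markers of starvation and senescence had 9 measured genes, of which 1 was called, beside 5.03% of all probe sets. ATL8, a sugar-repressed ubiquitin ligase, was at 11.39 and 11.33 at 24 h and 11.37 and 12.06 at 48 h. Of 4 sugar starvation and SnRK1 genes limma called 0, with a median of 0.22. At an unadjusted p under 0.05 there was 1, and with the replicate block 1. AKINBETA1, which encodes a beta subunit of SnRK1, the kinase that senses low energy, differed by 0.09 ± 0.22. Of 5 leaf senescence genes WRKY6, a transcription factor of senescence and defence, rose by 1.29 ± 0.31 (adjusted p = 0.0482), from 6.19 and 6.43 to 7.10 and 8.11. All 5 changes were above 0, with a median of 0.56, and WRKY53 (0.89 ± 0.31), WRKY22 (0.56 ± 0.16), SAG101 (0.55 ± 0.22) and EIN3 (0.31 ± 0.16) were not called. At an unadjusted p under 0.05 there were 4 of the 5, and the replicate block called 3, with WRKY53 (adjusted p = 0.0361) and WRKY22 (0.0476) beside WRKY6. These criteria are looser: of all 22746 probe sets 3882 had an unadjusted p under 0.05, and the replicate block called 2972. In the wider list of 6 measured WRKY factors 4 changes were above 0 and 2 below. There the replicate block called 3 up and 1 down. The WRKY6 call was lost without 24 h array B (adjusted p = 0.23), 24 h C (0.164) or 48 h C (0.112).

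**Figure D4:**
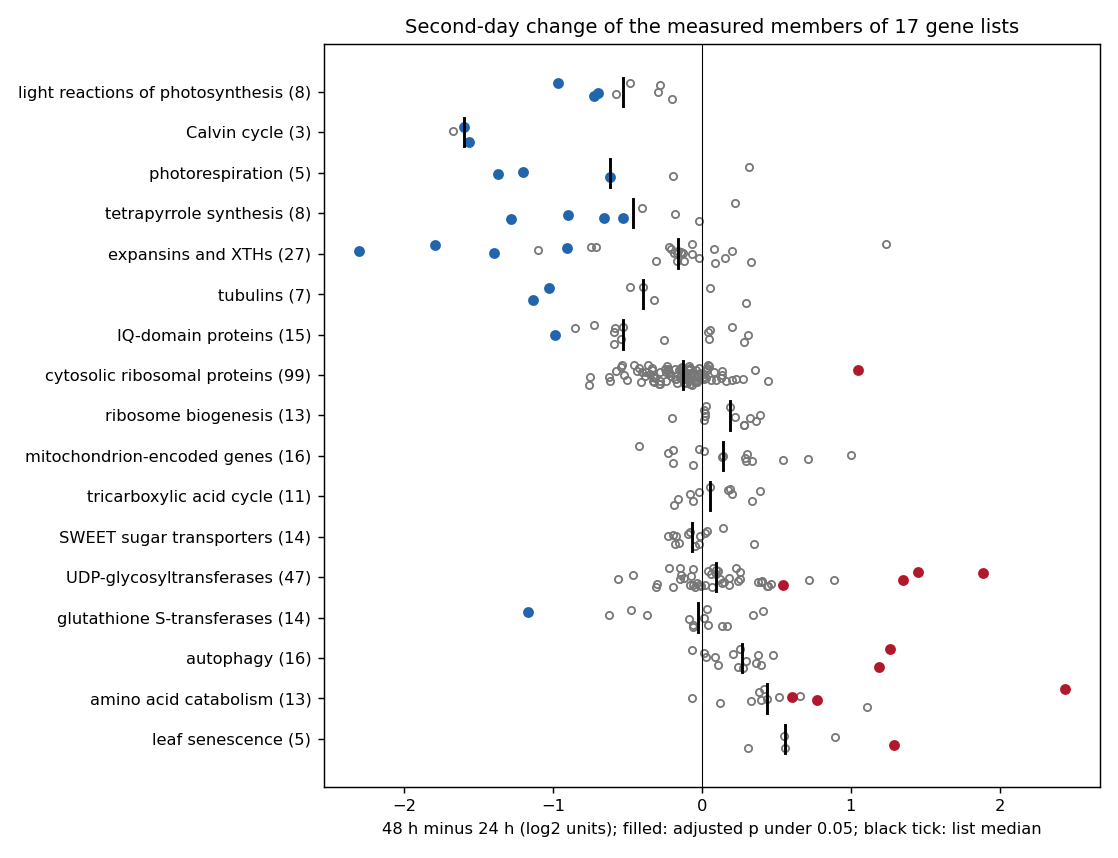
Change from 24 h to 48 h in log2 units for the measured members of 17 gene lists, with the number measured in brackets. Filled points were called, red for rises and blue for falls, open points were not called, and the black tick is the list's median; the 3 Calvin cycle genes lie near -1.6, and the tick for autophagy lies at 0.27.

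UDP-glycosyltransferases attach sugars to hormones and defence compounds, and of 47 measured members 4 rose (8.51%, beside 2.48% of all probe sets) and 0 fell, with a median of 0.09. UGT76B1, which glycosylates salicylic acid and isoleucic acid, read 4.43 and 4.42 at 24 h and 5.65 and 6.97 at 48 h, a rise of 1.89 ± 0.33 (adjusted p = 0.0133). UGT87A2 read 9.35 and 9.38 at 24 h and 10.79 and 10.65 at 48 h, a rise of 1.35 ± 0.13 (adjusted p = 0.00108), with each pair of arrays nearly equal. UGT73B5 rose by 1.45 ± 0.19 (adjusted p = 0.00341) and UGT73C7 by 0.54 ± 0.12 (adjusted p = 0.0343). UGT73B4, a close relative of UGT73B5, differed by 0.89 ± 0.25 and was not called. Of 20 beta-glucosidases BGLU45 rose (1.82 ± 0.33, adjusted p = 0.0152) and BGLU33 fell (-0.88 ± 0.18, adjusted p = 0.0271). These are shares of 5.00% up and 5.00% down, beside 2.48% and 2.55% of all probe sets. Of 14 glutathione S-transferases GSTU18 fell (-1.16 ± 0.19, adjusted p = 0.00862) and 0 rose. Of 23 cytochromes P450 CYP71B6 rose by 0.86 ± 0.15 (adjusted p = 0.0137). The shares were 7.14% down and 4.35% up. With the shares over all probe sets, 1 call in families of this size says nothing particular about them. With the replicate block 6 UDP-glycosyltransferases were called up and 1 down, 4 beta-glucosidases up and 2 down, 2 glutathione S-transferases down and 3 cytochromes P450 up.

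The calls of UGT76B1 and BGLU45 were lost without 24 h array B (adjusted p = 0.0806 and 0.0911) or 24 h C (0.0868 and 0.0893). Those of UGT73C7 (0.0966 and 0.213) and CYP71B6 (0.0551 and 0.11) were lost in the same 2 cases and without 48 h B (0.126 and 0.0582). UGT73C7 was also lost without 48 h C (0.0524). GSTU18 (0.0661) and BGLU33 (0.182) were lost without 24 h C, and BGLU33 without 48 h B (0.116). Other called rises, noticed after their values were seen, included GAT1_2.1, of the glutamine amidotransferase class (1.75 ± 0.36), YLS5, a gene of yellow leaves (1.70 ± 0.20), and STZ, a zinc-finger repressor induced by salt and cold (1.67 ± 0.31). YLS5 kept its call without any 1 of the 4 arrays. STZ did not without 24 h B (0.0974) or 24 h C (0.0948), nor did GAT1_2.1 (0.112 and 0.149), which was also lost without 48 h C (0.0552).

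HIS1-3, a linker histone induced by drought, was 1 of 6 measured histones and the 1 that was called (16.7%, beside 2.48% of all probe sets). It read 10.22 and 10.05 at 24 h and 11.36 and 11.26 at 48 h, a rise of 1.17 ± 0.12 (adjusted p = 0.00136) after levels of 5.66, 5.84 and 5.87 at the end of the night. PUB24, a U-box ubiquitin ligase, rose by 0.90 ± 0.12 (adjusted p = 0.00426). It was the 1 called of 33 measured genes of ubiquitin conjugation and removal, a share of 3.03% near the 2.48% of all probe sets. The replicate block called 3 of the 33 up and 2 down, and of the histones 1 up and 1 down. GI (GIGANTEA), a circadian clock protein and the 1 of 22 listed clock genes with a probe set assigned to 1 gene here, read 7.83 and 7.45 at 24 h and 8.92 and 8.98 at 48 h. At the end of the night, the same clock time, it had been at 5.72, 5.74 and 5.19. GI rose by 1.31 ± 0.22 between 24 h and 48 h (adjusted p = 0.0108), a call lost without 24 h array C (0.09).

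Of 99 cytosolic ribosomal proteins 1 rose (1.01%, beside 2.48% of all probe sets), AT2G40010 (1.05 ± 0.11, adjusted p = 0.00148), and 0 fell. It read 7.42 and 7.40 at 24 h and 8.46 on both 48 h arrays, while 78 members of the group were below 0 and the median was -0.13. None of 13 ribosome biogenesis genes (median 0.19), 16 mitochondrion-encoded genes (median 0.14), 14 SWEET sugar transporters (median -0.06), 11 tricarboxylic acid cycle genes (median 0.06) or 8 proteasome subunits (median 0.04) was called by limma at an adjusted p under 0.05. At an unadjusted p under 0.05 these groups held 2, 3, 0, 0 and 2 genes in the same order, beside 3882 of all 22746 probe sets. Beside the 5.03% of all probe sets that were called, 0 calls in groups of 8 to 16 genes says nothing particular about them. With the replicate block 2 of the mitochondrion-encoded genes were called up, and 0 genes of the other 4 groups. The block called 8 ribosomal proteins down and 2 up. The scpl35 gene, of 29 serine carboxypeptidases, fell by 0.88 ± 0.18, and TET7, of 15 tetraspanins, by 0.87 ± 0.17. Each was the 1 call of its family, 3.45% and 6.67% of the members beside 2.55% of all probe sets. With the replicate block 1 serine carboxypeptidase and 1 tetraspanin were called up and 3 of each down. Neither single call held without 24 h array B (adjusted p = 0.177 and 0.0757), 24 h C (0.055 and 0.159) or 48 h B (0.0788 and 0.0778), and that of scpl35 was also lost without 48 h C (0.0656). Root markers PYK10 (0.42 ± 0.50) and EXPA7 (-0.14 ± 0.19) and the guard cell marker FMA (0.04 ± 0.17) were not called.

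The probe sets that changed on the second day were also examined at 8 h of darkness against the end of the night. Those arrays do not enter the 48 h and 24 h means. The same fit, however, pools the spread of all arrays into the calls of both comparisons. A probe set of low spread is called more readily in both, so the shares below are not an independent check. The 8 h samples were taken at another clock time, within the former light period, so hour and length of darkness differ together there. At 8 h limma called 27.7% of all probe sets, with 12.7% higher and 15.02% lower. Of the 565 second-day rises 223 had risen at 8 h (39.5%), 47 had fallen (8.32%) and the others were not called. Of the 579 second-day falls 377 had fallen at 8 h (65.1%) and 45 had risen (7.77%). LrgB had fallen by 2.94 at 8 h, CaS by 2.25 and SBPASE by 1.17. LTI30 had risen by 3.32 and ATG8B by 2.09, whereas CHI differed by 0.58 at 8 h and was not called (adjusted p = 0.0672). PORB, called down on the second day, had risen by 1.37 at 8 h.

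The second-day change was tested against the first-day change (24 h minus the end of the night). Both use the 24 h arrays, which enter them with opposite sign. The difference was called in 2276 probe sets (10.0%), positive in 1292 and negative in 984. Of the 15 leading rises 4 had risen on the first day, 1 had fallen and 10 were not called. Of the 15 leading falls 10 had fallen, 1 had risen and 4 were not called. The first-day share over all probe sets is not given here, so these counts are a description only. The genes were selected on the 24 h arrays, which also enter the first-day change. XTH19 was at 5.68, 5.57 and 5.13 at the end of the night, so that it went up by 1.93 on the first day and down by 1.79 on the second. AT3G60420 was at 8.10, 8.61 and 8.17 and did the reverse, going down by 1.53 and then up by 2.62. CHI was at 7.28, 6.95 and 6.53 at the end of the night, a first-day difference of 0.40 that was not called. CaS (-3.17 on the first day and -2.28 on the second) and AT1G65230 (-2.74 and -2.12) fell on both days.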

How the data were processed

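The deposited table holds log2 signals per probe set for 14 ATH1 arrays, made by the authors with RMA, per the submitters' processing notes. For the software that ran RMA, a version is not given in the sources used. About 10 µg of total RNA went into each labelling, per the labels. No column was left without a sample. Of 22810 probe sets, 64 controls were left out, and no dim probe set was. The number of arrays limits the precision.

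Two-sided tests came from lmFit and eBayes of limma 3.58.1 (R 4.3.3), on all 14 arrays, with time point (8 levels) as the factor and without a term for replicates. There were 6 residual and 3.25 prior degrees of freedom, and the posterior standard deviation had a median of 0.165 log2 units. Benjamini-Hochberg adjustment covered 22746 probe sets. The fitting was tested on simulated data. Other tools were matplotlib 3.10.9, numpy 2.4.6, pandas 2.3.3 and Python 3.11.15.

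Gene names came from the array annotation and RefSeq's TAIR10.1 table, which held the gene of 13436 of 13513 probe sets with 1 gene (13355 different genes, 1535 with a symbol other than the locus). For a listed gene with several probe sets the brightest stood. The 70 lists, 59 with a measured member and 26 with a called one, are described by counts and medians, with no list test. The members and lists were chosen with earlier results of these data known, and 18 lists after the array annotation had been seen. Named genes are the 15 largest called rises and falls with 1 gene and no overlap between the 48 h and 24 h arrays, up to 4 called members of each list, and other list members by value.

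Same-letter arrays of different time points had deviations from the time point means that correlated at 0.17 to 0.58 in 16 pairs, against -0.58 to 0.37 in 32 pairs of different letters. The letters were therefore taken to pair the samples, although the labels do not say so. The main fit has no letter term, so its standard errors, adjusted p-values and 1144 calls ignore this pairing. The letter enters only as the replicate block among the alternatives, which gave 2972 calls. Many of these correlations repeat or mirror each other, as 2 arrays of a time point deviate by opposite amounts. Alternatives were a stricter threshold (adjusted p under 0.01, or 4-fold), median centring, a second quantile normalization, eBayes with trend and robust settings, array weights, dropping the 33.3% of probe sets with the lowest mean, the letter as a replicate block over the 11 lettered arrays, only the time points compared, and leaving out each array in turn.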

Additional observations from a re-analysis of the deposited data

Results flagged for a closer look

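In 10 of the 30 leading genes the change of the second day differed from that of the first by the limma test of the difference (adjusted p under 0.05). Over all probe sets 10.0% were called in this test. The genes had been picked for their second-day change, which is part of the difference tested. That selection favours calls with the sign of the second-day change, so the count is a description only. Values are the second-day change minus the first-day change in log2 units. The difference was 4.15 ± 0.42 for AT3G60420, 2.84 ± 0.69 for AT1G19020, 2.35 ± 0.38 for CHI and 2.07 ± 0.46 for AT5G38900. It was 1.95 ± 0.43 for AT3G01830, 1.92 ± 0.44 for AT4G39670 and 1.85 ± 0.46 for AT1G54890. It was -3.72 ± 0.46 for XTH19, -2.24 ± 0.33 for DRT100 and -1.69 ± 0.31 for AT1G09750. Adjusted p ran from 6.62e-04 for AT3G60420 to 0.0344 for AT1G54890. XTH19 and AT3G60420 were called in opposite directions on the 2 days. The other 8 were not called on the first day.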

How the results depend on the processing

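The 1144 calls, 565 up and 579 down, stayed within 1.5 times of these counts with median centring (1133 in all), a second quantile normalization (1137), the dimmest probe sets left out (1044) and trend and robust settings (1095). No called probe set changed sign with median centring or the second quantile normalization. Under the other settings, including array weights, the replicate block and any left-out array, a change of sign was not possible. The 24 h and 48 h arrays of the called probe sets did not overlap, and fits that kept these arrays gave the same change. The kept sign is therefore no check there. Array weights, which gave both 48 h arrays 0.526 and both 24 h arrays 1.06, left 645 calls (315 up, 330 down). The letter as a replicate block gave 2972 (1474 up, 1498 down), among them all 1144. A fit of the 24 h and 48 h arrays alone gave 2 (2 up, 0 down), both at least 2-fold. An adjusted p under 0.01 left 362 (161 up, 201 down). Leaving out 1 array gave 346 to 1739 calls, 155 to 929 up and 167 to 810 down. Without 48 h array B there were 881, of which 632 were among the 1144, and without 48 h array C 870 of the 1739 were. The 563 changes of at least 2-fold became 291 to 910, and 61 were at least 4-fold. The 2276 differences between the second and first day became 4709 with the replicate block, 867 at an adjusted p under 0.01 and 597 to 3006 with 1 array left out. The cause of these shifts was not tested. Of the 70 named genes all kept their call with the replicate block, 38 without 24 h B, 37 without 24 h C, 55 without 48 h B and 61 without 48 h C, and 0 with the 24 h and 48 h arrays alone. With 2 arrays a side, small changes and probe sets of low signal are limited in precision, and the p-values lean on a spread pooled over all replicated time points.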
